A study of Schizosaccharomyces pombe with 2 samples.

Results

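The introns described here are the annotated introns of 100 to 149 nt that were recovered as excised circles from fission yeast (*Schizosaccharomyces pombe*). They were taken from the authors' list of annotated intron peaks by the stated intron length alone, and they number 464 of 1292 listed introns, in 438 genes. All counts come from cells of strain 972 h- with the genotype delta-dbr1, so every value is from cells without the debranching enzyme and none is from cells that have it. The tables used here have no row for dbr1 itself, so its deletion was not checked. RNA of 41 growth and treatment conditions was pooled, and the arc of circular RNA was cut from a 2-dimensional acrylamide gel. By the authors' names for the tables, the annotated introns and branch points are from the short run, 1 library with 7.5% acrylamide in the first gel and 15% in the second. A long run with 20% in the second gel contributes here to the skipped exons alone. There is no replicate and no comparison between conditions, so all values are descriptions. Intervals are at the 95% level, except those of medians over gene groups of 4 or 5 introns, which are full ranges and fall short of it. Those of counts and their ratios reflect counting error alone, with each read taken as its own molecule although PCR copies cannot be told apart. Those of medians and shares take introns, genes or pairs as independent draws, although all share the library and introns of 1 gene its transcript. No interval covers the spread between libraries.

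When an intron is spliced out, its 5′ end is joined to an adenosine near its 3′ end, the branch point, and the intron leaves as a lariat, a circle with a short tail. The enzyme Dbr1 normally cuts that bond, and the opened intron is degraded. In cells without Dbr1 the lariats persist, so reads over a lariat were taken to mark an intron that was spliced. Fission yeast introns are short, and the spliceosome recognises them by the 5′ splice site, the sequence around the branch point and the AG at the 3′ end. A read that crosses the branch joins the intron's first bases to the branch point and so places it.

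The range of the class is set out by its highest introns and its lowest. The letters are from NCBI RefSeq's ASM294v3 assembly, in which all 1292 listed introns run from GT to AG at the authors' positions. They are written 5′ to 3′ on the transcript strand. Capitals mark the first 6 bases (5′ splice site), the 7-nt branch sequence with most branch reads, and the last 3 bases. The branch point is base 6 of the 7, and psf3 intron 2 had no branch reads, so no branch sequence is marked.
rpp102 intron 1 (chr2:4009177-4009315, minus strand): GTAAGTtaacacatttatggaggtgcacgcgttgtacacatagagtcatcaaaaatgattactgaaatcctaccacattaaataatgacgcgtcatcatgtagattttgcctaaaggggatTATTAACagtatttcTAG
rpl31 intron 1 (chr1:5018273-5018392, plus strand): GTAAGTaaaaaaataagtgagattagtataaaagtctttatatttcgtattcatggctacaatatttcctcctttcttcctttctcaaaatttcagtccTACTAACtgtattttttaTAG
rps13 intron 1 (chr1:2746336-2746438, minus strand): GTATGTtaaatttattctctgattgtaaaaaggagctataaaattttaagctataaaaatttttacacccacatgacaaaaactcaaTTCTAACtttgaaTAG
rps2602 intron 1 (chr1:2793253-2793352, minus strand): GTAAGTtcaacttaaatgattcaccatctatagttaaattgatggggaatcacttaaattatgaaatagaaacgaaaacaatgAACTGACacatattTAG
psf3 intron 2 (chr1:528461-528566, minus strand): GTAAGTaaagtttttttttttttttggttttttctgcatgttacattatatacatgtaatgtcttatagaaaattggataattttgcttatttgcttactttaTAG

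The first 4 had between 450739 and 716954 peak reads, the authors' count of reads over the intron's peak, and psf3 intron 2 had 5. All 5 lie between coding exons and end in TAG. The 5′ splice site GTAAGT is found both in rpp102 intron 1, the highest of the class, and in psf3 intron 2, the lowest.

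The class held more reads per intron than the rest of the list. The median was 1304.5 peak reads over the 464 class introns (interval 910 to 1608, quartiles 230 and 4887.75), against 201 over the 828 other listed introns (interval 135 to 282). It held 35.9% of the listed introns and 5596330 of the 9296300 listed reads, or 60.2%. Above the median of the whole list, 438 reads, stood 306 of the 464 class introns (65.9%), against 340 of the 828 others (41.1%). The neighbouring classes lay on either side, with a median of 200 reads in the 312 introns of 80 to 99 nt and of 2498 in the 251 introns of 150 to 200 nt. The class median therefore exceeded that of the shorter neighbours and was below that of the longer ones. How much RNA each gene made, and how well circles of each size were recovered from the gel, were not measured, and their part in these differences was not tested.

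A few introns carried most of the reads. The 10 highest class introns held 63.7% of the class reads and the 50 highest held 83.7%, while 41 introns had fewer than 50 reads. Of the 10 highest introns of the whole list 7 belong to the class, and 49 of the 100 highest. At least 10000 reads were counted over 67 class introns.

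**Figure D1:**
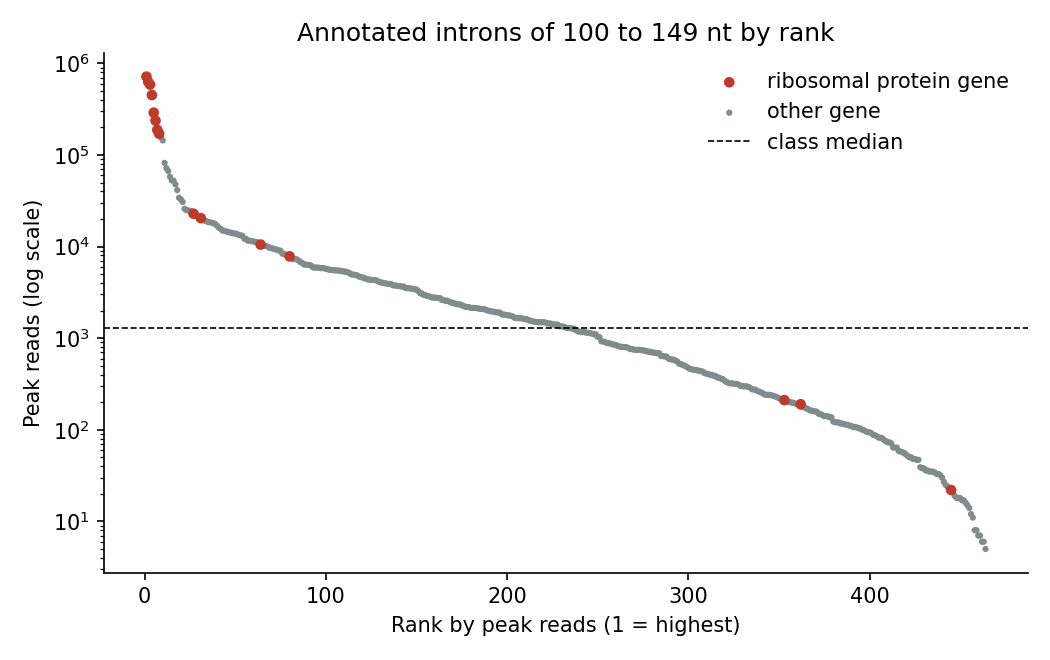
Each point is 1 of the 464 introns of 100 to 149 nt, with its rank on the x axis and its peak reads on a log y axis; red marks introns of ribosomal protein genes, grey other genes, and the dashed line the class median of 1304.5 reads. The first 8 ranks are all red and lie above 100000 reads, while 3 of the 15 red points lie below the median.

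Genes for cytosolic ribosomal proteins, the protein parts of the ribosome, led the ranking. Their 15 class introns in 14 genes held 3328392 reads, 59.5% of all class reads, with a median of 170554. The 449 introns of other genes had a median of 1268. The 8 highest class introns were all first introns of such genes, but 12 of the 15 are first introns. Those of rpl31, rps2602, rps2801, rpl4301 and rpl35b are the only annotated intron of their gene. After rpp102 (ribosomal protein P1, 716954 reads), rpl31 (eL31, 626617), rps13 (uS15, 586655) and rps2602 (eS26, 450739) came rps2801 (eS28) with 289891 reads and rpl4301 (eL43) with 237155. The intron of rpl35b, which RefSeq calls rpl35A02 and describes as eL33, had 187743 reads, and intron 1 of rpl3801 (eL38) had 170554.

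Not all ribosomal protein introns were high. The other 7 ranged between 22 and 22857 reads: rps3002 intron 2 had 22857, rps1602 intron 1 had 20455, rps2202 intron 1 had 10522, and rpp102 intron 2 had 7827. The single intron of rpp101, another gene for P1, had 211 reads, against 716954 for the first intron of rpp102. The intron of rpl2301 had 190 reads and intron 2 of rps2501 had 22. No class intron shared more than 18.4% of its 20-nt words with any other place in the genome, and the highest share was that of tif211 intron 2.

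Outside the ribosomal genes, intron 1 of rga4, which codes for a GTPase-activating protein, was highest with 155868 reads. It was followed by intron 2 of pex7 (peroxin-7, an import receptor of peroxisomes) with 144205 and intron 1 of shd1 (a protein of the Sla1 family) with 81965. Both class introns of osh6 (named SPCC23B6.01c in the files, an oxysterol binding protein) were among the 15 highest, intron 2 with 71960 reads and intron 1 with 52719. Between them lay intron 1 of lcf1 (a fatty acid-CoA ligase) with 66928 and intron 3 of wbp1 (a subunit of the enzyme that glycosylates proteins in the endoplasmic reticulum) with 57854. All 15 of the highest introns end in TAG.

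At the other end stood introns of genes with varied roles. Above psf3 intron 2, from a gene of the GINS complex of DNA replication, came SPCC11E10.09c intron 3 and mrpl25 intron 1 (mitochondrial ribosome) with 6 reads each. The first introns of meu15 and of SPAC29A4.17c (fun14, mitochondrial outer membrane) had 7 each. Intron 2 of rec7 (meiotic recombination) and intron 5 of exo70 (exocyst) had 8 each, and intron 2 of atp10 (ATPase assembly) had 11. SPAC1296.01c intron 3 had 12 and intron 4 of sec61, the channel for proteins entering the endoplasmic reticulum, had 14. Counts this small have wide intervals and lie near 5, the lowest value in the list, so the order among these 10 is not resolved.

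The gene groups other than ribosomal proteins, matched on gene names, had medians between 56 and 3382 reads, against 1304.5 in the class. The interval of the median included the class median in 10 of these 10 groups, so none of them stood clearly above or below the class. Names matched some genes of other roles. Those left out of a second median were found after the values were seen and are named with their group. Others remain in the groups, since genes named mug were kept under meiosis whatever product RefSeq gives, such as mug161, a splicing factor. Of 14 introns of ubiquitin and proteasome genes, 9 lay above the class median, and their median was 1993. The proteasome subunits pre6 (intron 2, 25070 reads) and pup2 (intron 2, 24885) were highest, and ubc12, which conjugates the ubiquitin-like NEDD8, was lowest (intron 3, 110). The group also holds ubp13 intron 3 (1172), which RefSeq calls pan2, a poly(A) ribonuclease, and without it the median was 2183. Of 4 introns of RNA polymerase genes, 3 lay above it, with a median of 3382, and ranged between 24307 in rpa43 intron 1 and 159 in rpc25 intron 1; rpb9 intron 2 had 3894. Of 6 introns of translation genes 3 lay above, with a median of 3239.5. The cap-binding factor tif45 had 14630 reads over intron 2, tif223 had 9272 over intron 2, and gcd10, named trm6 in RefSeq, had 257 over intron 1.

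The groups for mitochondria and DNA replication and repair had medians near that of the class. Of 11 mitochondrial introns 6 lay above it, with a median of 1495, the highest being sdh1 intron 1 (succinate dehydrogenase, 9045 reads) and qcr6 intron 2 (6630) and the lowest mrpl25 intron 1. Of 14 introns of replication and repair genes 7 lay above, with a median of 1131.5. The single-strand binding subunit ssb3 (intron 2, 13262) and the clamp loader subunit rfc3 (intron 4, 12190) stood at its top and psf3 at its bottom.

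The other 5 groups had medians below that of the class, within wide intervals. Of 18 introns of small GTPase and vesicle traffic genes 6 lay above the class median, and their median was 265 (interval 82 to 2620). It held vti1 intron 3 (a SNARE, 5899 reads), vps55 intron 4 (5658) and, lowest, sec61 intron 4. Of 17 introns of meiosis and mating genes 6 lay above, with a median of 458 (interval 92 to 3524), between mug64 intron 3 (25884), spo14 intron 2 (9686) and meu15 intron 1 (7). Without SPBC776.07 intron 1 (mam33, 921), which matched by its letters alone, the median was 349.5. The splicing group had 3 of 9 above and a median of 410 (interval 141 to 10413), with lsm3 intron 4 at 10413 and lsm6 intron 1 at 48, both from genes of proteins bound to U6 RNA. Its highest member, srp72 intron 1 (21665), and SPAC17H9.07 intron 2 (srp21, 693) belong to genes of the signal recognition particle, which is no part of splicing. Without both, 2 of 7 introns lay above and the median was 266. Of 4 cytoskeleton introns 1 lay above, with a median of 392.5 and a range of 162 to 1658. They are klp9 intron 2 (a kinesin, 1658), arc4 intron 2 (510), arc5 intron 2 (162) and arp8 intron 3 (275). The last codes for an actin-like subunit of a chromatin remodelling complex, and without it the median was 510. Of 5 introns with names of non-coding RNA genes 1 lay above, with a median of 56 and a range of 18 to 1336. SPNCRNA.1693 had 1336 reads, SPNCRNA.1250 had 103 and SPNCRNA.1062 had 18, and none of the 5 had branch reads. SPNCRNA.1597 (39) has the positions of an intron of the protein gene ina17 in RefSeq, and without it the median was 79.5.

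Longer introns of the class had somewhat higher counts. The median was 692.5 reads over the 140 introns of 100 to 109 nt, 1172 over the 95 of 110 to 119 nt, 1569.5 over the 90 of 120 to 129 nt, 1953 over the 75 of 130 to 139 nt, and 2367 over the 64 of 140 to 149 nt. Spearman's rank correlation between length and reads was 0.189 over the 464 introns, which share the library. It was 0.140 for reads divided by length. Each step's median exceeded that of the step below it, and introns with fewer than 50 reads and with at least 10000 reads occurred in every step. The rank correlation was 0.175 over the introns of 80 to 99 nt and -0.213 over those of 150 to 200 nt, so above the class longer introns had fewer reads.

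Introns next to the limits of the class overlapped with it. At the lower limit the medians were 251 over 12 introns of 98 nt and 1109 over 15 of 99 nt, outside, and 1017.5 over 14 introns of 100 nt and 561 over 24 of 101 nt, inside. At the upper limit they were 2827 over 8 introns of 148 nt and 254.5 over 6 of 149 nt, inside, and 3917 over 6 of 150 nt and 1464 over 8 of 151 nt, outside.

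**Figure D2:**
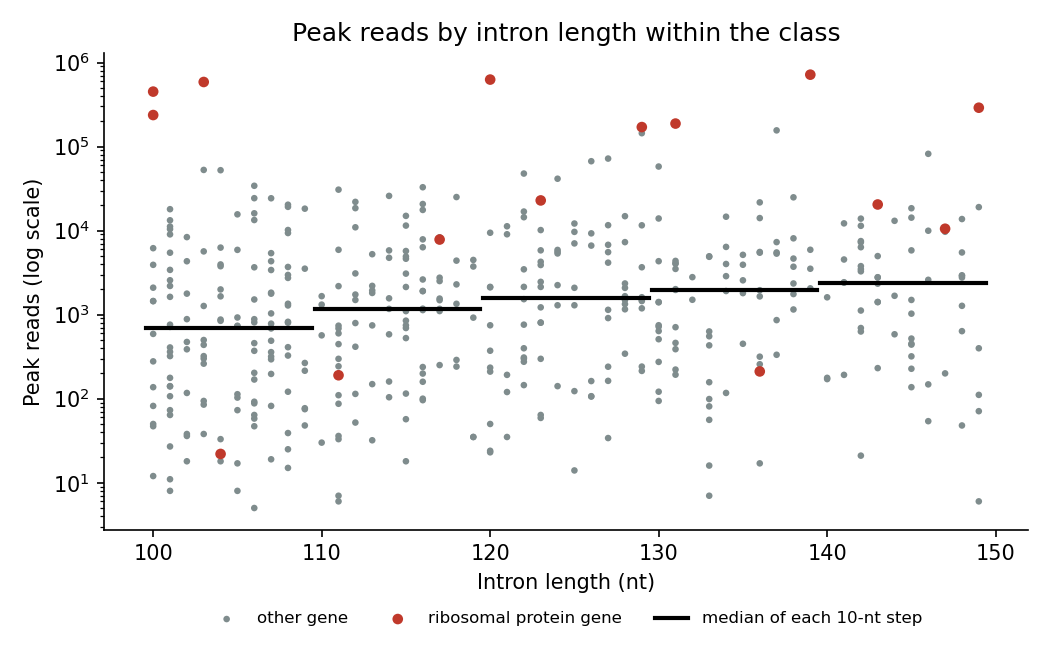
Each point is 1 class intron, with its length in nt on the x axis and its peak reads on a log y axis; black bars give the median of each 10-nt step and red marks ribosomal protein genes. The bars climb by step between 692.5 and 2367 reads, while points of every step span several orders of magnitude.

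The place of an intron in its gene was followed by small differences. The median was 1486 reads over the 243 introns numbered 1, against 1119 over the 221 with a higher number, with largely overlapping quartiles (254 to 5569.5 against 193 to 3915). The difference of the medians was 0.12 on the log10 scale. By number, the median was 872 in 128 introns numbered 2, 1221 in 59 numbered 3 and 1824 in 28 numbered 4, and 157.5 in the 6 introns numbered 5 or higher. There was thus no steady fall with number up to 4. At least 10000 reads were counted over 41 of the 243 first introns (16.9%) and 26 of the 221 later ones (11.8%), and without ribosomal protein genes over 31 of 231 (13.4%) and 25 of 218 (11.5%). Fewer than 50 reads were counted over 16 first introns (6.58%) and 25 later ones (11.3%). By position, 102 first introns of genes with several had a median of 1607.5, 102 middle introns of 1577.5 and 116 last introns of 824, and the only introns of 135 genes had one of 1486.

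Introns of the same transcript often differed widely. In 25 genes the class held more than 1 intron, 2 in 24 genes and 3 in trm2 (named SPAC4G8.07c in the files). The highest count was a median of 10.3 times the lowest (quartiles 1.66 and 22.05), over 10 times in 13 genes and under 2 times in 9. For scale, the upper quartile of all 464 class introns was 21.3 times the lower. Ratios between introns of different genes were not taken. The first class intron was the highest in 12 of 25 genes (48.0%, exact interval 27.8 to 68.7%), where equal chances for each intron would give 49.3%. The longer intron was the higher in 15 of the genes. Across the 25 genes, the rank correlation between the first and the last class intron was 0.196, although each pair shares its transcription and the library.

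The largest ratio was that of rga4, with 155868 reads over intron 1 and 21 over intron 2. The sequences of the pairs from rga4 and from fkh1, a peptidyl-prolyl isomerase that binds the drug FK506, are given with the same capitals.
rga4 intron 1 (chr2:1839710-1839846, plus strand): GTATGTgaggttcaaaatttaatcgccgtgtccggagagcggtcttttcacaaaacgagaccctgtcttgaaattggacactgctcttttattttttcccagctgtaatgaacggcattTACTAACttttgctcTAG
rga4 intron 2 (chr2:1839903-1840044, plus strand): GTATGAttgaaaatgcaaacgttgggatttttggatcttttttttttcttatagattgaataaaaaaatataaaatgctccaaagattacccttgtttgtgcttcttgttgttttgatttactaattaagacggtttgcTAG
fkh1 intron 3 (chr2:632143-632247, minus strand): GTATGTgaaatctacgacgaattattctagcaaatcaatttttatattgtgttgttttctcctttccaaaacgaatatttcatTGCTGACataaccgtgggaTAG
fkh1 intron 2 (chr2:632268-632395, minus strand): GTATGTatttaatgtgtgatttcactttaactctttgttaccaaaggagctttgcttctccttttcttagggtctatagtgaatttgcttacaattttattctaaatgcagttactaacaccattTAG

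Both introns of rga4 begin with GTATG and end with TAG, and they differ by 5 nt in length at 137 and 142 nt. The ratio was 7422, with a counting interval of 4855 to 11991. Intron 1 had 15 branch reads at TACTAAC and intron 2 had none. In fkh1 the later intron was higher, with 15615 reads over intron 3 and 343 over intron 2, a ratio of 45.5 (40.9 to 50.8). Intron 3 had 96 branch reads at TGCTGAC, 1 of the 18 leading sequences with CTGAC. Intron 2 had none, though it holds the letters TACTAAC 9 bases before its end and begins with the same GTATGT.

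Such wide gaps occurred in both directions along the gene. In rpp102, intron 1 had 716954 reads and intron 2 had 7827, a ratio of 91.6. In yop1, a membrane-shaping protein of the endoplasmic reticulum, intron 1 had 4878 and intron 2 had 59 (82.7). The later intron was the higher in dtd1 (SPAC8C9.05), with 5911 over intron 3 and 104 over intron 1 (56.8). In mug64 the earlier class intron was the higher, with 25884 over intron 3 and 631 over intron 4 (41.0). In trm2, a tRNA methyltransferase, intron 2 had 4255 reads, intron 1 had 240 and intron 4 had 193, so the middle of the 3 stood apart (22.05 between highest and lowest). In rex2, an RNA exonuclease, intron 1 had 729 and intron 3 had 35 (20.8). The lower introns of yop1 and rex2 also hold the letters TACTAAC, at 19 and 10 bases before the end, and had no branch reads.

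In 4 genes the introns were nearly even. In wip1 (named new1 in the files) intron 1 had 2141 reads and intron 2 had 1778, a ratio of 1.20. In rho4 intron 4 had 100 and intron 3 had 82, a ratio of 1.22 whose interval of 0.902 to 1.65 includes equality. Ratios of 1.24 in eaf1 (5346 over intron 3, 4319 over intron 1) and 1.36 in osh6 complete the 4. The higher intron of a gene had more branch reads than the lower in 15 of the 25 genes, fewer in 6 and as many in 4.

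**Figure D3:**
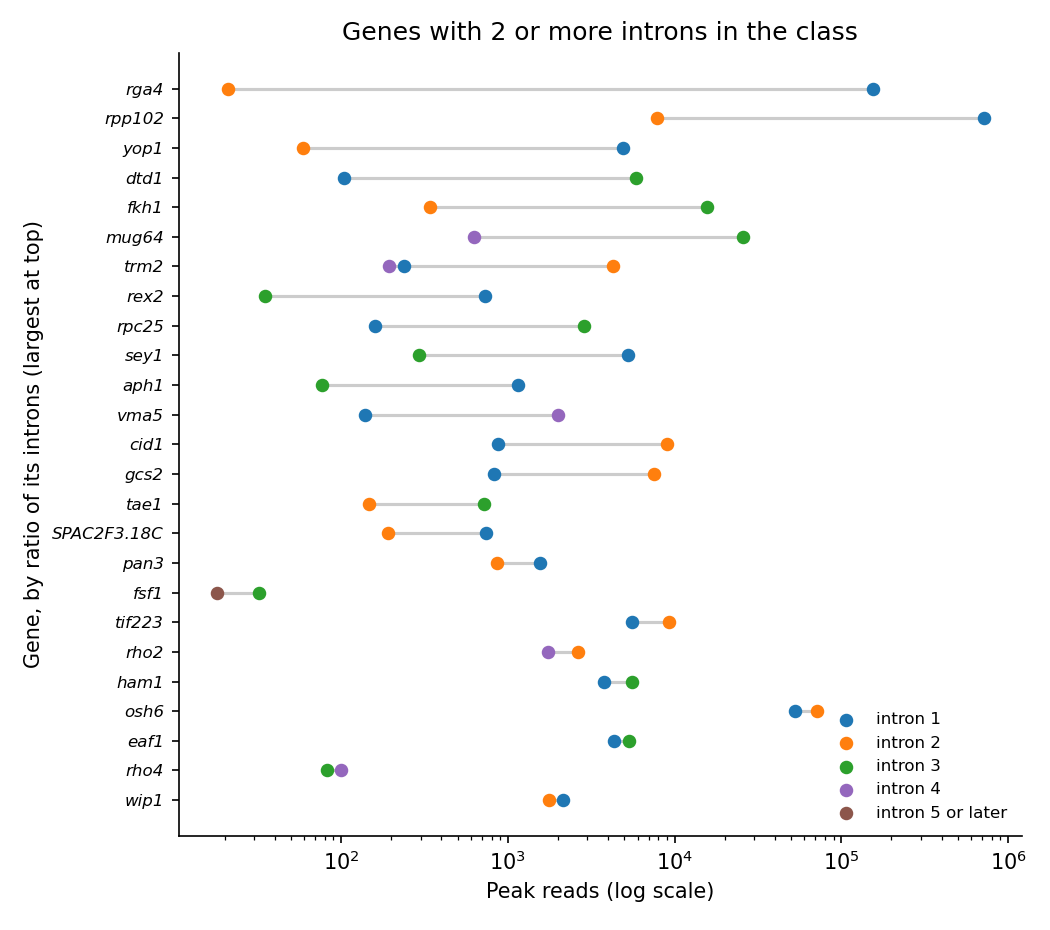
Each row is 1 of the 25 genes with 2 or more introns of 100 to 149 nt, sorted by the ratio of its highest to its lowest intron, with peak reads on a log x axis and colours for the intron's number in the gene. The gap is widest in rga4, at 155868 against 21 reads, the colour on the right varies from gene to gene, and the lowest 9 rows have ratios under 2.

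Another listed intron was present in 113 of the 438 genes, and comparison with introns of other lengths in the same gene gave the same order as the length classes for the shorter ones. With listed introns under 100 nt of the same gene there were 63 pairs in 59 genes. The class intron had more reads in 47 of the 63 (74.6%, exact interval 62.1 to 84.7%, pairs taken as independent). Medians were 1492 reads over the class introns and 156 over the shorter ones. Against introns of 150 nt or more, the class intron was higher in 30 of 51 pairs (58.8%, 44.2 to 72.4%), an interval that includes an even split, with medians of 2093 and 2417. This set pools introns of 150 to 200 nt with those over 200 nt. Their medians over the whole list, 2498 and 27.5 reads (251 and 160 introns), lie on either side of the class median. The pairs were not split at 200 nt, so this share does not test the order of the length classes. Pairs went far in either direction, chosen here after their values were seen. In ctr6, a copper transporter, intron 2 (107 nt) had 5390 reads and intron 3 (94 nt) had 10, while in ggc1 (SPCC1682.09c) intron 1 (121 nt) had 35 and intron 2 (99 nt) had 52650.

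Reads across the branch were found for most class introns. At least 1 branch read was listed for 335 of the 464 class introns (72.2%, Wilson interval 68.0 to 76.1%), against 425 of the 828 others (51.3%), 70.2% at 80 to 99 nt and 59.8% at 150 to 200 nt. The class thus exceeded the longer neighbours in this share although their median of peak reads was higher. The 335 introns had 9613 branch reads in all, with a median of 7 (quartiles 2 and 21), and 61 had a single one. Introns with branch reads had a median of 2133 peak reads and the 129 without had 190. Of the 50 highest class introns 49 had branch reads, and of the 50 lowest 12.

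The leading branch sequence, the position with most branch reads in an intron, varied around a common core. The 7 letters took 54 forms, and TACTAAC was the most frequent with 64 of 335 introns (19.1%, 15.3 to 23.7%), against 65 of 425 other introns (15.3%). TACTAAT followed with 33, TTCTAAC with 25, TATTAAC and TGCTAAC with 24 each, and AACTAAC with 21. Base 6, the branch point itself, was A in all 335, base 4 was T in 333 (99.4%) and base 5 was A in 305 (91.0%). Base 3 was C in 285 (85.1%, against 79.5% in other introns), and base 7 was C in 252 (75.2%) and T in 78 (23.3%). Bases 1 and 2 were freer, with T in 66.9% and A in 57.9%. The most frequent forms are therefore those with CTAAC (187 introns, 55.8%) or CTAAT (69, 20.6%), while TTAAC led in 37 and CTGAC in 18.

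The median of peak reads varied between leading sequences, within wide quartiles. Those with TACTAAC had a median of 4239 peak reads (quartiles 1015.75 and 7425), against 1953 (575 and 6306) in the 271 with another leading sequence. Medians were 3787 for TGCTAAC, 2336 for AACTAAC, 1776 for TACTAAT, 1227.5 for TATTAAC and 1119 for TTCTAAC. For the 18 with CTGAC the median was 1271. The letters alone did not mark the introns with branch reads. TACTAAC was present in the last 50 bases of 95 of 464 class introns (20.5%), searched on the transcript strand, against 141 of 828 others (17.03%). It was present in all of the 64 where it led, in none of the other 271 with branch reads, and in 31 of the 129 without branch reads (24.0%). Those 31 had a median of 387 peak reads, and the 98 without branch reads or the letters had 161.

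The branch lay close to the 3′ end. Between the 7-nt branch sequence and the end of the intron lay a median of 11 bases (quartiles 9 and 13, range 5 to 45), and in 330 of 335 introns 20 or fewer. Peak reads varied little with this distance, with medians of 2456 over 109 introns of 9 bases or fewer, 2010 over 163 of 10 to 13, and 2050.5 over 58 of 14 to 20. The 5 introns beyond 20 had a median of 77. They were atg20 intron 2 with 45 bases (3 branch reads), xlf1 intron 2 with 40 (1), ulp2 intron 3 with 33 (1), pyp3 intron 1 with 22 (45) and aph1 intron 3 with 21 (1), so pyp3 alone of them rests on more than 3 branch reads. The shortest were coq4 intron 4 with 5 bases (3 branch reads) and 7 introns with 6, among them wbp1 intron 3 (25) and ubp8 intron 2 (33). Of those 7, 3 rest on 1 branch read. The circle, counted between the 5′ end and the branch point, was thus a median of 108 nt long (quartiles 96 and 120).

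**Figure D4:**
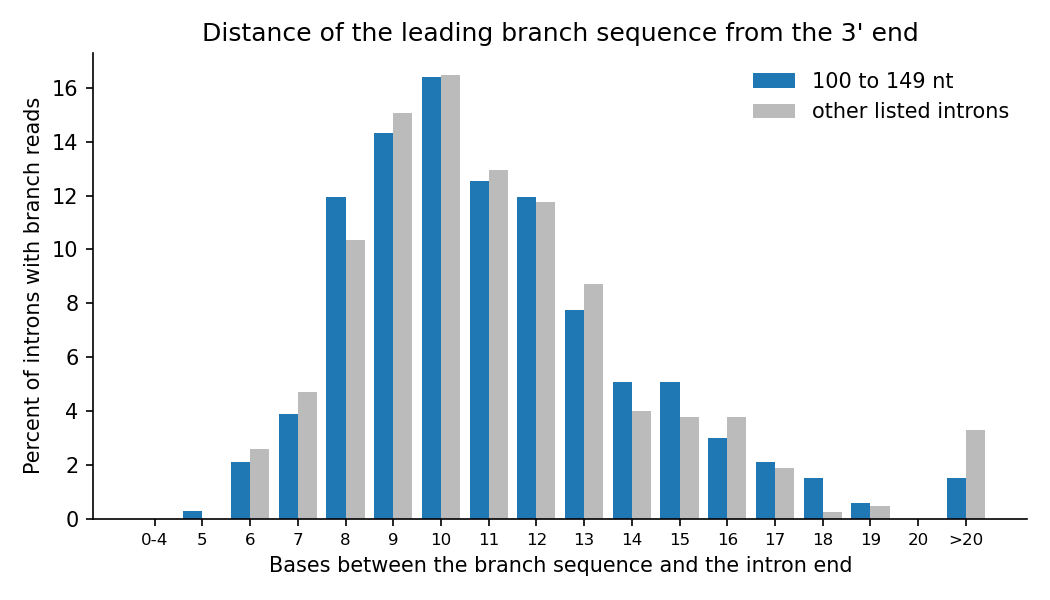
Bars give the percent of introns with branch reads by the number of bases between the leading branch sequence and the intron end, blue for the 335 introns of 100 to 149 nt and grey for the 425 other listed introns. Both sets have their highest bar at 10 bases (16.4% and 16.5%), and 1.49% of the class introns lie beyond 20, against 3.29% of the others.

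Nearly all branch reads lay at the leading position of their intron. The leading position held 97.9% of all branch reads, 252 introns had 1 listed position and 83 had more, among them 50 of the 88 introns with at least 20 branch reads. An intron with a single branch read, as 61 had, can show only 1 position. The number of introns with 1 position therefore depends on the number of branch reads. Of the 100 further positions, 64 lay 1 base upstream of the leading one, with 135 of their 198 reads, which would put the branch on base 5 of the leading sequence. Whether these are shifts in alignment was not tested. The leading share was lowest in SPAC1B3.02c intron 3 with 60 of 70 reads (85.7%), where 8 reads lay at TATTTAC 4 bases upstream. It was 19 of 22 (86.4%) in ssb3 intron 2, 20 of 22 (90.9%) in ssb2 intron 1, 30 of 33 (90.9%) in prr1 intron 4 and 23 of 25 (92.0%) in wbp1 intron 3. In ssb3 and prr1 all 3 remaining reads lay 4 bases upstream, at GATTAAC and ATTATAC. Intron 1 of rps13 had the most positions, 5, with 828 of 849 reads at the first.

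Introns with more peak reads had more branch reads, but far from in proportion. Spearman's rank correlation was 0.463 over the 335 introns, whose branch and peak reads share the library. Per 1000 peak reads there was a median of 3.07 branch reads, with quartiles of 1.05 and 12.4, and of 1.24 over all 464 introns with those without branch reads counted as 0. Among introns with branch reads it was 49.04 in the 20 introns with under 100 peak reads, 11.3 in the 90 with 100 to 999, 2.09 in the 160 with 1000 to 9999 and 1.08 in the 65 with 10000 or more. Introns without a branch read are left out of these ratios, so an intron with few peak reads enters them only with a high ratio.

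The 3 introns with the highest branch reads were those of rpl31 (1302), rps13 (849) and rpl3801 (483), which together held 2634 of the 9613. Intron 1 of put2 (SPBC24C6.04, proline breakdown) followed with 452 at TATTAAT and 11473 peak reads, ahead of rpp102 intron 1 with 336. Intron 1 of glo2 (SPAC824.07) had 208 at AACTAAC with 11400, and lcf1 intron 1 had 200 at GACTAAC. By contrast, SPAC3F10.16c intron 1, from a gene for a GTP-binding protein, had 211 branch reads and 75 peak reads and was the only class intron with more of the first. Its sequence is given with those of sac3 intron 2 (SPCC576.05, mRNA export), the highest class intron without branch reads, and of pyp3 intron 1, with the longest distance among well-read branches.
SPAC3F10.16c intron 1 (chr1:2851558-2851666, minus strand): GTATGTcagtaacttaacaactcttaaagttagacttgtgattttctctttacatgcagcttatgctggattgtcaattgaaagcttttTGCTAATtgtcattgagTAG
sac3 intron 2 (chr3:2089518-2089618, plus strand): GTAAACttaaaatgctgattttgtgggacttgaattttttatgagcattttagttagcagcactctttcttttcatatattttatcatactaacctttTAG
pyp3 intron 1 (chr1:5299126-5299230, plus strand): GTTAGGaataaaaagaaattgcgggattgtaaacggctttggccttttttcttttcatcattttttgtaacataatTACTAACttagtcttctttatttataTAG

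The ratio of SPAC3F10.16c was 2813 branch reads per 1000 peak reads, and pyp3 intron 1 followed with 616 (45 of 73). The 5′ splice site of pyp3 intron 1 is GTTAGG, unlike the frequent forms. Among introns with at least 5 branch reads, ratios of 320 in SPCC61.04c intron 2, 278 in fsf1 intron 5 and 188 in fsf1 intron 3 were next. The first of these is from 96 branch reads and 300 peak reads, the last 2 from 5 and 6 branch reads. With fewer branch reads, meu15 intron 1 had a ratio of 286 (2 of 7). At the other end, rps2602 intron 1 had 9 branch reads at AACTGAC for 450739 peak reads, or 0.0200 per 1000. With the same minimum, rpl4301 (0.0928), rga4 intron 1 (0.0962), rpl35b (0.266) and rps2801 (0.269) were next. Of these 5 with rps2602, 3 have TACTAAC as their leading sequence. Some introns with fewer branch reads had ratios below that of rpl4301, such as kap104 intron 1 (0.0419, from 2). Intron 2 of sac3 had 17980 peak reads (rank 38) and no branch read, with the letters TACTAAC 7 bases before its end. SPCC1450.12 intron 2 (10145), gcs2 intron 2 (7503) and snd302 intron 1 (7256) were the next without any.

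**Figure D5:**
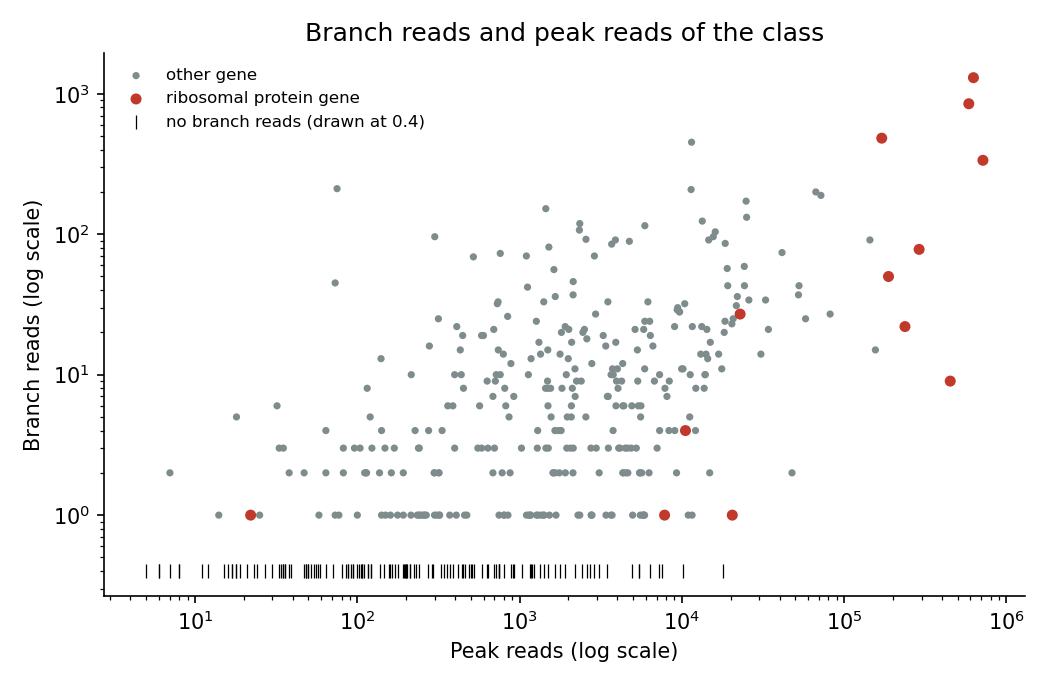
Each point is 1 class intron, with peak reads on a log x axis and branch reads on a log y axis, red for ribosomal protein genes; ticks at the foot are the 129 introns without branch reads. Points tend to rise to the right but scatter widely at a given number of peak reads, with rps2602 at 9 branch reads on the far right and SPAC3F10.16c at 211 on the left.

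Splice sites of the class were close to those of the other introns. The first 6 bases took 34 forms, led by GTAAGT with 168 introns (36.2%, against 38.0% of the others) and GTATGT with 118 (25.4%, interval 21.7 to 29.6%, against 23.8%). Medians of peak reads were 1528 for GTAAGT, 742 for GTATGT, 1711 for the 28 with GTATGA, 760 for the 25 with GTACGT and 2349 for the 21 with GTAAGA. The highest median among forms with at least 10 introns was that of GTAGGT, 9340 over 12 introns, and 6 of the 12 had at least 10000 reads. They include osh6 intron 2 with 71960, ump1 intron 1 (proteasome assembly) with 52323 and fol2 intron 2 (SPAC17A5.13, GTP cyclohydrolase) with 30707, but also meu15 intron 1 with 7. This form was singled out after its values were seen, as were its named members.

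The 3′ ends were TAG in 328 introns (70.7%), CAG in 91 (19.6%), AAG in 44 (9.48%) and GAG in 1. Medians were 1378.5 reads for TAG, 1515 for CAG and 677 for AAG. Median GC content was 29.5% in the class and 30.5% in the others, and its rank correlation with peak reads was 0.142 over the 464 introns. Coding introns numbered 438 with a median of 1378.5 reads, introns of 5′ UTRs 14 with 1868.5, and introns of 3′ UTRs 3 with 227. The remaining 9, of which 4 carry names of non-coding RNA genes, did not match an annotated intron exactly and had a median of 56.

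Nearly all annotated introns of this length were listed. In the RefSeq annotation 486 introns of mRNA genes are 100 to 149 nt long, and 455 of them were listed with both ends equal (93.6%, interval 91.1 to 95.5%). Among the 31 others, the longest were SPCC417.09c intron 1 (149 nt), alg2 intron 3 (148 nt) and SPCC1884.01 intron 2 (147 nt). They were followed by crd1 intron 6 (139 nt), SPAC186.08c intron 1 (136 nt), SPBC1348.12 intron 2 (135 nt), omh3 intron 1 (134 nt), efm3 intron 1 (132 nt), SPAC30D11.02c intron 1 (128 nt) and cam1 intron 1, the calmodulin gene (126 nt). Then came spo4 intron 1 (122 nt), ncs1 and aah2 intron 2 (118 nt each), mrp17 intron 1 (117 nt) and SPAC8E11.04c intron 4 (114 nt).

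Some of these 31 had reads elsewhere in the deposited tables. Intron 6 of crd1 is in the authors' list of added introns with 5928 reads. Branch reads were listed for ncs1 intron 2 (46, at ATCTAAC), mrp17 intron 1 (2) and tfg2 intron 2 (1). Those of omh3 and asn1 overlap a listed intron with other ends. In 3 of the 31 (yip11, yip12 and wtf2) at least 50% of the 20-nt words occur elsewhere in the genome, against 0 of the 464 listed class introns. For the first introns of yip11 and yip12 the share is 100%. The part of such copies in the missing entries was not tested.

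Added introns of the same length had far fewer reads. Of 222 added introns 109 are 100 to 149 nt long, with a median of 108 reads (quartiles 66 and 173) and a highest value of 47060. The added list holds no value under 50, and the 423 annotated class introns with at least 50 reads had a median of 1564 (quartiles 366 and 5476). In 14 genes a class intron and an added intron of any length were listed, and in 4 of these the added intron is 100 to 149 nt long. Of those 4, 1 is antisense to its gene.

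Class introns bordered 2 of the skipped exons that the authors listed, both recovered from the long run as a circle spanning both introns and the exon. Intron 2 of trm402 (SPAC23C4.17, 108 nt, 2735 peak reads) lies downstream of exon 2, whose skipping was listed with 78 reads. That exon and its flanking introns are 207 nt long together. Intron 2 of rho2 (116 nt, 2620 peak reads) lies downstream of exon 2, whose skipping was listed with 61 reads. Here the exon and its flanking introns are 279 nt long together. The length between the 5′ end and the branch point was not listed for either. Both introns were above the class median and had no branch reads. The runs are separate libraries, so their counts were not set against each other.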

How the data were processed

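RNA of delta-dbr1 cells from 41 conditions was mixed, and each gel run gave 1 library. The submitters' processing notes name Bowtie 0.12.3 and SAMtools. Which tool did what, and the peak calling, annotation and build, were not given in the sources used here. Counts were deposited as whole numbers of reads for each intron peak and branch position, per the file headers, with no normalization. They therefore carry transcript amount, gel recovery, intron length and library preparation together. The listed introns hold 9296300 reads, a sum over features and not a depth. Of 1314 lines in the annotated table, 22 repeated ones were dropped; none was in the class.

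Positions were read as 1-based and inclusive on ASM294v3. The class is every listed intron of 100 to 149 nt. Branch positions were joined by gene and intron number for 333 introns and by position for 2, and all 435 class positions lay at the stated distance. Of 455 class introns with an exact RefSeq match, 450 had the same number in the gene.

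The members, the 11 gene lists and the rule for named introns were chosen with earlier results of these data known. The rule took the 15 highest and 10 lowest introns, the 8 largest and 4 smallest ratios within genes, 2 highest and 1 lowest per list, extremes of branch reads, distance, leading share (at least 20 branch reads) and ratio to peak reads (at least 5), up to 15 unlisted introns and those beside skipped exons. Counts were described by medians with order-statistic intervals, shares by Wilson or exact binomial intervals, ratios of counts by exact intervals; no test was run over introns. Interval functions were tested on simulated data. Python 3.11.15, numpy 2.4.6, pandas 2.3.3, scipy 1.17.1 and matplotlib 3.10.9 were used.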

Additional observations from a re-analysis of the deposited data

How the results depend on the processing

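Of 57 alternatives to 18 results, 49 stayed within the interval of the value given above, 8 moved beyond it and 0 reversed. Some of the 49 changed no data. The class held no repeated line and no intron counted as having a copy, so those settings could not change its median. Leaving out copies likewise could not change the length correlation or the share of GTATGT. Introns of every transcript type, and ends within 3 nt, gave the same 93.6% of 486 annotated introns as listed. Of the 57, 5 were chosen after seeing the data: each leaves genes of another role out of a gene group, and those medians are given above. Without ribosomal protein genes the class held 42.2% of the listed reads, against 60.2% with them. Among class introns with at least 50 peak reads, 76.8% had branch reads, against 72.2% of all. TACTAAC made up 14.7% of all listed branch positions and led in 27.3% of introns with at least 20 branch reads, against 19.1%. The median of branch reads per 1000 peak reads was 4.08 with at least 5 branch reads and 1.24 with introns without branch reads counted as 0, against 3.07, and the rank correlation between them was 0.360 and 0.595, against 0.463. The cause of these shifts was not tested, beyond the introns each setting adds or drops. No paired analysis was possible because each gel run is a single library. With 1 library the spread between cultures is unknown, and low counts near 5 limit the order of the lowest introns.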

Other observations

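Of the class introns, 5 begin with GTAAAC, a form chosen here after its values were seen. They are gid7 intron 2 (SPAC343.04c) with 41428 peak reads, sac3 intron 2 with 17980, mst2 intron 1 (a histone acetyltransferase) with 17615, rdl2 intron 1 (SPAC4H3.07c) with 2244 and set6 intron 2 with 450. Thus 4 of the 5 lie above the class median of 1304.5 reads.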
